A study of Mus musculus with 4 samples.

Results

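Germ cell and meiosis genes were described over 4 arrays of mouse embryonic stem (ES) cells. The members were the probe sets annotated to Dazl, Sycp1, Sycp3, Ddx4, Mael, Stk31, Hormad1 or Nanos3 and to no other symbol. This gave 9 of the 45101 probe sets in the table, for 7 of the 8 listed genes, with Dazl and Stk31 read by 2 probe sets each. Nanos3, an RNA-binding factor of primordial germ cells, had no probe set of its own symbol and was not analysed here. All 7 genes passed the filter on weak signals, among 12485 genes tested.

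All cells were of strain E14.1 and carried a blasticidin-resistance gene, placed behind an internal ribosome entry site, in the Oct3/4 locus. All were grown in medium with serum, leukaemia inhibitory factor (LIF) and blasticidin, which selects for cells that transcribe Oct3/4. The cells were Sall4 flox/-, described as heterozygous (line HET18), or Sall4 delta/-, described as null (line KO1). Each line was grown on gelatin without feeders and on blasticidin-resistant fibroblast feeders. There were thus 4 groups of 1 array each, with no replicate, and each genotype was 1 line, so line and genotype cannot be told apart.

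In the animal, the genes of this group act in the germ line. DAZL and DDX4 handle RNA in germ cells, MAEL and STK31 belong to the machinery around germ granules and piRNAs, the small RNAs that silence transposons, and SYCP1, SYCP3 and HORMAD1 build the chromosome axes and the synaptonemal complex that pairs homologous chromosomes in meiosis. In somatic cells many such genes are silenced by DNA methylation and by a Polycomb complex that holds MAX, MGA and E2F6. ES cells in serum transcribe several of them at low to moderate levels without entering meiosis. SALL4 is a zinc finger transcription factor of both ES cells and germ cells.

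The promoters are shown for the 4 members with the lowest fitted genotype differences, to set their letters beside the signals. All 8 genes matched the RefSeq promoter table (build GRCm38.p6), and the 250 bases before the start site were read. Capitals mark CACGTG, the E-box that dimers of MAX bind, which reads the same on both strands. The Sycp3 promoter lies at chr10:88459337-88459586 (+ strand), that of Hormad1 at chr3:95559427-95559676 (+ strand, the first of its 2 listed promoters), that of Mael at chr1:166238745-166238994 (- strand) and that of Dazl at chr17:50293621-50293870 (- strand).
Sycp3: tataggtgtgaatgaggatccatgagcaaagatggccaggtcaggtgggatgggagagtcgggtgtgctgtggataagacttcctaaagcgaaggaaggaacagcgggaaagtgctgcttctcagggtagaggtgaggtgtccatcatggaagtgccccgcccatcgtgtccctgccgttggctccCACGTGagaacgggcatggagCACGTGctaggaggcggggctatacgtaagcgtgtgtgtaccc
Hormad1: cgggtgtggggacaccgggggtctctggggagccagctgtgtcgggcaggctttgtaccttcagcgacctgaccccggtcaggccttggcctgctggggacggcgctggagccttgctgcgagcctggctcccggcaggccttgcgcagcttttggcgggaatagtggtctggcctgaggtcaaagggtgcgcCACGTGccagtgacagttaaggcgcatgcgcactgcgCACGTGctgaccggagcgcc
Mael: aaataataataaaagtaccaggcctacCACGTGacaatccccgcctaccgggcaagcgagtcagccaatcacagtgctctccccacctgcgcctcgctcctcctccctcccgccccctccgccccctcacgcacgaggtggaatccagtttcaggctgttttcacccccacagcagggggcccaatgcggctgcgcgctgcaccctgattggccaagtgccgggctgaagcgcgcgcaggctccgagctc
Dazl: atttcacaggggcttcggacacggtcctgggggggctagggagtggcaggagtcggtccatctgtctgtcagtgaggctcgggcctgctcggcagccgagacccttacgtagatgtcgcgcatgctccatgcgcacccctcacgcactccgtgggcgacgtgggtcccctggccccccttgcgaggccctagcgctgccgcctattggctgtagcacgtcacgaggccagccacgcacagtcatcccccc
Sycp3 held CACGTG at 2 places, 64 and 43 bases before the start, and Hormad1 at 2 places, 57 and 20 bases before it. Mael held it once, 223 bases before the start, and Dazl did not hold these letters in this window. Sycp1, Ddx4 and Stk31 held it once each and Nanos3 not at all, so 6 of the 8 genes had it. Among 10082 tested genes with a promoter in the table, 9.98% held it in any listed promoter, and 11.26% among those with at least 10 CG pairs in the window. Other germ line genes, read in lists below, held it less often than the members. The counts were 5 of 13 for the piRNA pathway, 4 of 13 for the synaptonemal complex and axis and 4 of 12 for RNA binding. They were 2 of 13 for specification, 2 of 8 for meiotic entry and 0 of 12 for meiotic recombination. The members had 3 (Nanos3) to 31 (Ddx4) CG pairs. TCCCGC, letters of the E2F6 site, searched on both strands, stood in 4 of the 8 genes and in 34.18% of tested genes, and the octamer ATGCAAAT in 0 of 8 and 1.49%. Tested genes with and without CACGTG had nearly equal median genotype differences, at log2 values of 0.0060 and 0.0090. Sycp3 and Dazl, at 2 and 0 copies, had fitted differences of -1.06 and -1.04. These are matches of letters, not sites shown to be bound, and their part in the genotype differences was not tested.

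Signals are MAS5 values on a linear scale, and each pair of signals below gives flox/- cells first and delta/- cells second. The median signal was 16.1 to 18 on the 4 arrays. Sall4 itself read 1126.5 and 1670.5 on gelatin and 780.8 and 1452.4 on feeders, in flox/- and delta/- cells, by the brighter of its probe sets. It was thus higher where the label says null. The labels do not say which part of the gene was deleted, so this does not check the genotype and directions rest on the labels. Differences and folds are on the scale log2(signal + 4.6), which draws those of weak signals towards 0, and are given as delta/- minus flox/-. Fitted differences carry a standard error (SE) from limma's additive model of genotype and feeders.

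**Figure D1:**
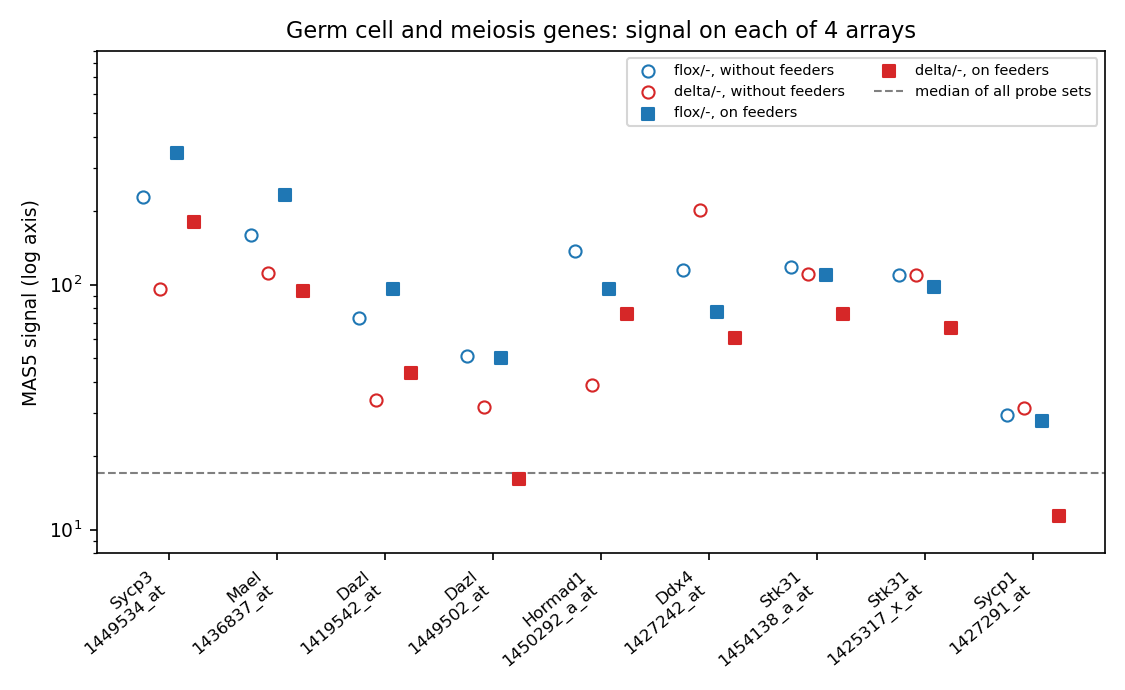
MAS5 signal (log axis) of the 9 probe sets on each array, with blue for flox/- cells, red for delta/- cells, open circles without feeders and filled squares on feeders, and a dashed line at the median of all probe sets (17.1). Both red symbols of Sycp3, Mael, Dazl and Hormad1 lie below both blue ones, as do those of 17.1% of all tested genes, while Ddx4 is highest in delta/- cells without feeders.

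The chromosome axis genes Sycp3 and Hormad1 read lower in delta/- cells in both feeder conditions. Sycp3, which encodes the lateral element protein of the synaptonemal complex, had a signal of 226.8 in flox/- cells and 95.7 in delta/- cells on gelatin, and 343.5 and 180.8 on feeders. Both delta/- arrays lay below both flox/- arrays, as in 17.1% of tested genes. The log2 difference was -1.21 on gelatin and -0.91 on feeders, and the fitted difference was -1.06 (SE 0.18), with an adjusted p of 0.152 by limma over all genes.

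Hormad1, whose product marks unsynapsed chromosome axes, had signals of 137.7 and 38.8 on gelatin and 96.0 and 75.7 on feeders. The delta/- array on gelatin stood lowest, and both delta/- arrays lay below both flox/- arrays, as in 17.1% of tested genes. Its difference was -1.71 on gelatin and -0.33 on feeders, with a fitted value of -1.02 (SE 0.35, adjusted p = 0.348 by limma). The size thus rested largely on the pair on gelatin. Sycp1, the transverse filament protein that links the paired axes, gave 29.3 and 31.5 on gelatin and 27.7 and 11.4 on feeders. Only the delta/- array on feeders was low, so the differences were 0.09 and -1.01, and the fitted value was -0.46 (SE 0.35, adjusted p = 0.653 by limma).

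Dazl, an RNA-binding protein that controls translation in germ cells, read lower in delta/- cells by both of its probe sets. The brighter probe set gave 73.2 and 33.7 on gelatin and 95.8 and 43.7 on feeders, and the other gave 50.9 and 31.7, and 50 and 16.1. In each probe set both delta/- arrays lay below both flox/- arrays, as in 17.1% of tested genes. The brighter one differed by -1.02 on gelatin and -1.06 on feeders, which is 2.03-fold and 2.08-fold. The fitted difference was -1.04 (SE 0.21, adjusted p = 0.179 by limma). The other differed by -0.61 and -1.40, with a fitted value of -1.01 (SE 0.28, adjusted p = 0.261 by limma over every probe set).

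Among the genes of germ granules and the piRNA pathway, Mael, Ddx4 and Stk31 did not share a pattern. Mael, needed for transposon silencing in the male germ line, gave 159.2 and 111.1 on gelatin and 232.8 and 94.3 on feeders. Its delta/- arrays both lay below both flox/- arrays, as in 17.1% of tested genes. Its differences were -0.50 and -1.26 and its fitted value was -0.88 (SE 0.24, adjusted p = 0.257 by limma).

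Ddx4, the germ cell RNA helicase also known as Vasa, gave 114.9 and 200.8 on gelatin, but 77.6 and 60.3 on feeders. It was highest in delta/- cells on gelatin and lowest in delta/- cells on feeders. The differences had opposite signs, 0.78 on gelatin and -0.34 on feeders, and the fitted value was 0.22 (SE 0.30, adjusted p = 0.808 by limma). Ddx4 was the 1 member with a fitted difference above 0.

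Stk31, a Tudor domain kinase-like protein of germ cells, varied least. Its brighter probe set gave 117.8 and 110.0 on gelatin and 109.2 and 76.1 on feeders, and the other, of a type that can bind several transcripts, 109.8 and 109.3, and 97.9 and 66.3. In both, 3 arrays lay close together and the delta/- array on feeders was lower. The highest signal was 1.55 times the lowest in the brighter probe set and 1.66 times in the other, against 2.47 to 3.59 times in the other 7 member probe sets. The fitted difference was -0.30 (SE 0.20, adjusted p = 0.61 by limma).

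Both delta/- arrays lay below both flox/- arrays for 4 of 7 members (Sycp3, Hormad1, Dazl and Mael), against 17.1% of tested genes, and above them for 0, against 15.1%. By limma 0 of 7 members were called between genotypes at an adjusted p of 0.05, where 0.032% of all tested genes (4 of 12485) were called. At an unadjusted p under 0.05, 4 members were lower (Dazl, Sycp3, Mael and Hormad1) and 0 higher, where 6.5% of all tested genes were lower. The median fitted difference was -0.88 over the 7 members and 0.01 over all tested genes. The fitted differences of Sycp3, Dazl and Hormad1 were -1 or lower, as were those of 1.59% of tested genes. The members were chosen with earlier results of these data known, so these shares are a description and no independent support. The test has 1 residual degree of freedom, which is how far the genotype difference varies with feeders, and the spread between replicate cultures was not measured.

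Without a test, 5 of 7 members (Dazl, Sycp3, Mael, Stk31 and Hormad1) read lower in delta/- cells in both feeder conditions, against 29.1% of tested genes. Sycp1 and Ddx4 had opposite signs, as did 39.9% of tested genes, and 0 members read higher in both conditions. At least 2-fold lower on gelatin were Dazl, Sycp3 and Hormad1 (3 of 7, against 3.26% of tested genes). On feeders these were Dazl, Mael and Sycp1 (3 of 7, against 2.21%), where Sycp1 rested on a weak delta/- signal of 11.4. At least 2-fold higher were 0 members in either condition, where 4.21% of tested genes were on gelatin and 1.52% on feeders. Dazl alone was at least 2-fold lower in both conditions, as were 0.785% of tested genes. This count asks that the brighter array of a pair exceed the median signal of 17.1. Dazl lay just past 2-fold in both conditions, and Sycp3 just short of it on feeders, at 1.88-fold. Dazl no longer met the 2-fold rule when its probe sets were averaged.

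**Figure D2:**
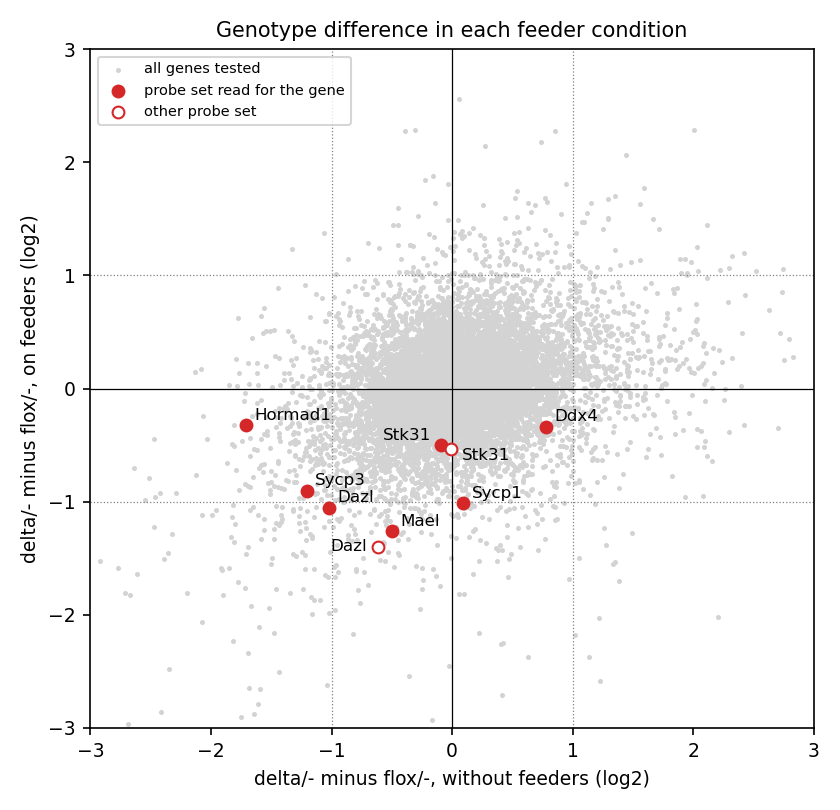
Difference on the scale log2(signal + 4.6), delta/- minus flox/-, without feeders (x axis) and on feeders (y axis), 1 pair of arrays each. Grey points are the 12485 tested genes (17 lie outside the axes), filled red points the probe set read for each member and open red points the other probe set, and dotted lines mark 2-fold. Most members lie in the lower left part, with the brighter Dazl probe set past both dotted lines. Hormad1 and Sycp3 are past the vertical 1 alone. Mael, Sycp1 and the other Dazl probe set are past the horizontal 1 alone.

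The second comparison was between cultures on feeders and without them. Members went both ways. By limma 0 of 7 were called, where 4.77% of tested genes were. At an unadjusted p under 0.05 there were 2 members, 1 in each direction (21.8% of tested genes in either direction). Sycp3 read higher on feeders in both genotypes, by 0.59 in flox/- cells and 0.89 in delta/- cells, and its fitted difference was 0.74 (SE 0.18, adjusted p = 0.0828 by limma). Ddx4 read lower in both, by log2 differences of -0.54 and -1.66, with a fitted value of -1.10 (SE 0.30, adjusted p = 0.108 by limma).

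The brighter Dazl probe set read higher on feeders by 0.37 and 0.33, but the other differed by -0.02 in flox/- cells and -0.81 in delta/- cells. The direction for Dazl thus depends on the probe set. Sycp1 differed by -0.07 and -1.17, and Stk31 by -0.11 and -0.51. Mael was higher on feeders in flox/- cells, by 0.54, and differed by -0.23 in delta/- cells, while Hormad1 differed by -0.50 and 0.89. Opposite signs in both genotypes were seen for 32.4% of tested genes. At least 2-fold lower on feeders in delta/- cells were Sycp1 and Ddx4, 2 of 7 against 2.47% of tested genes, and 0 were at least 2-fold higher there (6.64%). Sycp1 counted here through its weak signal of 11.4 on the delta/- array on feeders. In flox/- cells 0 members were at least 2-fold lower (1.79%) or higher (8.03%) on feeders. No member was at least 2-fold different in both genotypes, where 3.96% of tested genes were higher and 0.529% lower.

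Arrays on feeders also hold fibroblast RNA. The 25 fibroblast markers, all tested, summed to signals of 5169.3 in flox/- cells and 12030.6 in delta/- cells on gelatin, and to 25480.2 and 33752.1 on feeders, and 22 of 25 rose on feeders by limma. The sum was higher on the delta/- array in both conditions. In both, 22 of 25 markers read higher there, against 30.5% of tested genes, with 0 called between genotypes by limma. On gelatin the collagen genes Col1a1 and Col3a1 read 1.5 and 19.2 in flox/- cells and 36.0 and 243.7 in delta/- cells. The 3 markers that read lower in delta/- cells there were Col1a2 (38.4 and 36.2), Thy1 (20.8 and 15.7) and Pdgfra (42.5 and 35.7). Vim, Fn1, Acta2 and Tagln had the largest marker signals on gelatin. They read 1730.3, 1350.8, 732.9 and 657.3 in flox/- cells, and 4448.5, 1835.4, 1958.4 and 1491.9 in delta/- cells. The fibroblast sums on gelatin thus weigh these genes most, and which cells made their RNA was not tested. The sums of 10 ES cell markers were 20488.1 and 17208.4 on gelatin and 22314.7 and 20760.5 on feeders. The part of the fibroblast RNA in the members' differences was not tested. In such mixed RNA, fewer cells with a transcript and less of it per cell cannot be told apart. Of the 8 spermatid markers 7 lay under the filter signal of 9.46 in the mean, and Prm1, a protamine of sperm chromatin, read 3.4 to 19.4.

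**Figure D3:**
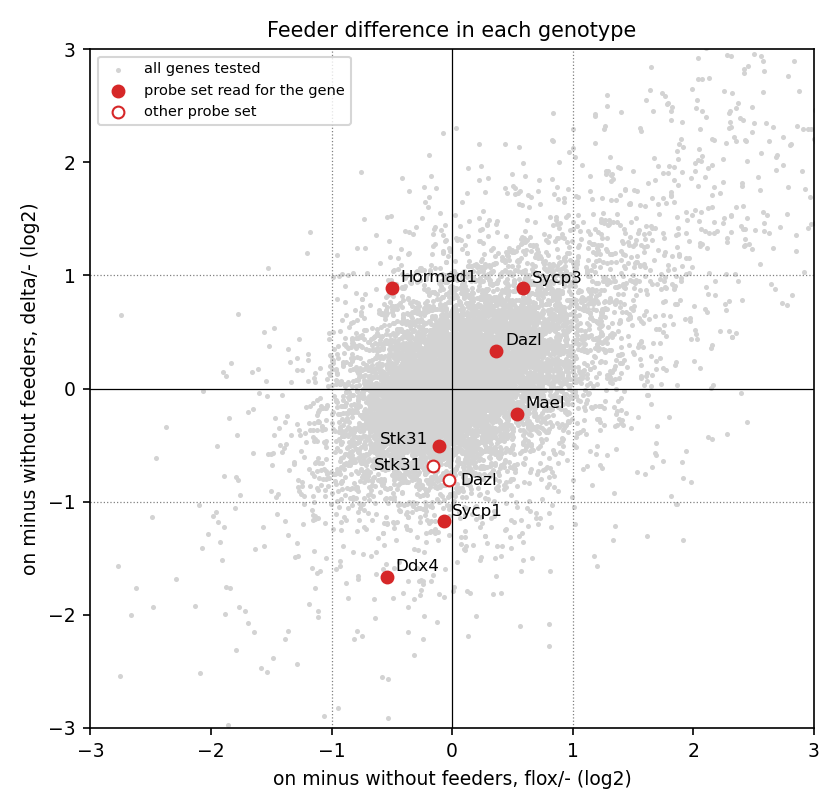
Difference on the scale log2(signal + 4.6), on feeders minus without feeders, in flox/- cells (x axis) and in delta/- cells (y axis), 1 pair of arrays each; symbols as for the genotype differences, with 152 tested genes outside the axes. Sycp3 is higher on feeders in both, Ddx4 lower in both, and Mael and Hormad1 have opposite signs.

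Other genes of the germ line were read from 6 lists on germ cell specification, RNA binding and germ granules, the piRNA pathway, the synaptonemal complex and axis, meiotic recombination and meiotic entry. Of their 90 genes 79 had a probe set of 1 symbol and 60 were tested. By limma 0 of 60 were called between genotypes. Both conditions read lower in delta/- cells for 24 of the 60 and higher for 12, against 29.1% and 30.5% of tested genes. At least 2-fold lower in both conditions were 3 of the 60 (Dppa3, Ybx2 and Tdrd12) and 0 were at least 2-fold higher, against 0.785% and 0.328% of tested genes. Ybx2 was weak, at 20.8 and 4.9 on gelatin and 38.5 and 15.3 on feeders. The median difference of the 60 was -0.07, where that of all tested genes was 0.01. The lists, like the members, were chosen with earlier results of these data known.

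Meiotic recombination genes were the list with the lowest median, -0.51 over 7 tested genes. Of these 6 were lower in both conditions, against 29.1% of all tested genes. The filter had left out 5 more genes of this list, 2 of them lower in both conditions. Mei4, needed to form meiotic DNA breaks, read 32.6 and 13.3 on gelatin and 61.4 and 32 on feeders. Its fitted difference was -0.95 (SE 0.25, adjusted p = 0.254 by limma). Mnd1, a partner of the strand exchange enzymes, had a fitted difference of -0.82 and Dmc1, the meiotic recombinase, of -0.51. The X-linked meiosis gene Tex11 had -0.53, with signals of 16.1, 16.7 and 17.0 on 3 arrays and 5.4 on the delta/- array on feeders.

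In the list of the synaptonemal complex and axis, the median of 7 tested genes was -0.08. Stag3, the meiotic cohesin subunit, had signals of 153.1 and 76.9 on gelatin and 271.3 and 101.5 on feeders, and a fitted difference of -1.17 (SE 0.20, adjusted p = 0.152 by limma). Rec8, another meiotic cohesin subunit, had 0.35, the central element gene Syce1 -0.09 and the general cohesin gene Smc3 -0.12.

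The piRNA list had a median of 0.03 over 11 genes. Tdrd12, a Tudor domain helicase of the piRNA pathway, read 362.0 and 130.7 on gelatin and 714.5 and 306.2 on feeders, and was at least 2-fold lower in delta/- cells in both conditions. Its fitted genotype difference was -1.32 (SE 0.16, adjusted p = 0.107 by limma). It rose on feeders by 1.09 (SE 0.16, adjusted p = 0.0206 by limma), as Sycp3 also read higher there without passing. The helicase gene Mov10l1 had -0.98, the methyltransferase gene Prmt5 -0.32 and Tdrd7 1.07 (SE 0.47). Mov10l1 was weak, at 18.3 and 6.8 on gelatin and 31.2 and 14 on feeders. Tdrd7 read 5.2 and 34.7 on gelatin and 44.4 and 49.2 on feeders, so its value rested largely on 1 weak signal. The piRNA-binding genes Piwil1 and Piwil4 read 2.8 or less on every array, while Piwil2 read 36.3 to 53.6.

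Among RNA-binding and germ granule genes, with a median of -0.08 over 14 genes, Gtsf1, a small zinc finger partner of piRNA complexes, had a fitted difference of -1.28 and the mRNA-packaging gene Ybx2 of -1.27. Rnf17, a Tudor domain gene of germ cells, had -0.91 and the polyadenylation regulator Cpeb1 0.67. Among 13 genes of germ cell specification (median -0.03) Dppa3 had -2.26, with signals of 219.2 and 29.5 on gelatin and 251.8 and 68.4 on feeders (adjusted p = 0.107 by limma). Tfap2c, a transcription factor of primordial germ cells, had -0.59, Ifitm1 -0.64 and the germ cell factor Sohlh2 0.67. Of 8 genes of meiotic entry (median 0.08), Dmrt1, a regulator of the switch to meiosis, had 0.51, the signal gene Bmp4 -0.49, and the retinoic acid enzyme genes Aldh1a2 and Cyp26a1 0.38 and -0.44. Between genotypes none of these passed by limma. By feeders, Ifitm3 rose by 0.85 and Lin28a fell by 1.02 in the specification list, and the Prmt5 partner Wdr77 fell by 0.44 in the piRNA list (adjusted p of 0.0117, 0.0172 and 0.0494 by limma). These 3 were named after their values were seen.

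The 19 genes of repressors of germ cell genes were all tested, and 0 were called by limma in either comparison. Their median genotype difference was -0.06. Max, E2f6 and Mga had differences of 0.17, 0.16 and -0.16. Larger values were those of the DNA methyltransferase genes Dnmt3a (-0.54) and Dnmt3b (-0.45) and of L3mbtl2 and Ehmt2 (-0.32 each). Dnmt3a read 273.1 in flox/- cells on gelatin and 72.6 to 105.3 on the other 3 arrays. Dnmt3b, likewise, read 2446.2 on that array and 1232 to 1372.5 on the others. The 10 ES cell markers had a median difference of -0.19, with 0 called by genotype. In both conditions 5 of them read lower in delta/- cells and 0 higher, against 29.1% and 30.5% of tested genes. The 4 largest differences were those of Fgf4 (-1.76), Utf1 (-0.69), Esrrb (-0.56) and Nanog (-0.53).

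**Figure D4:**
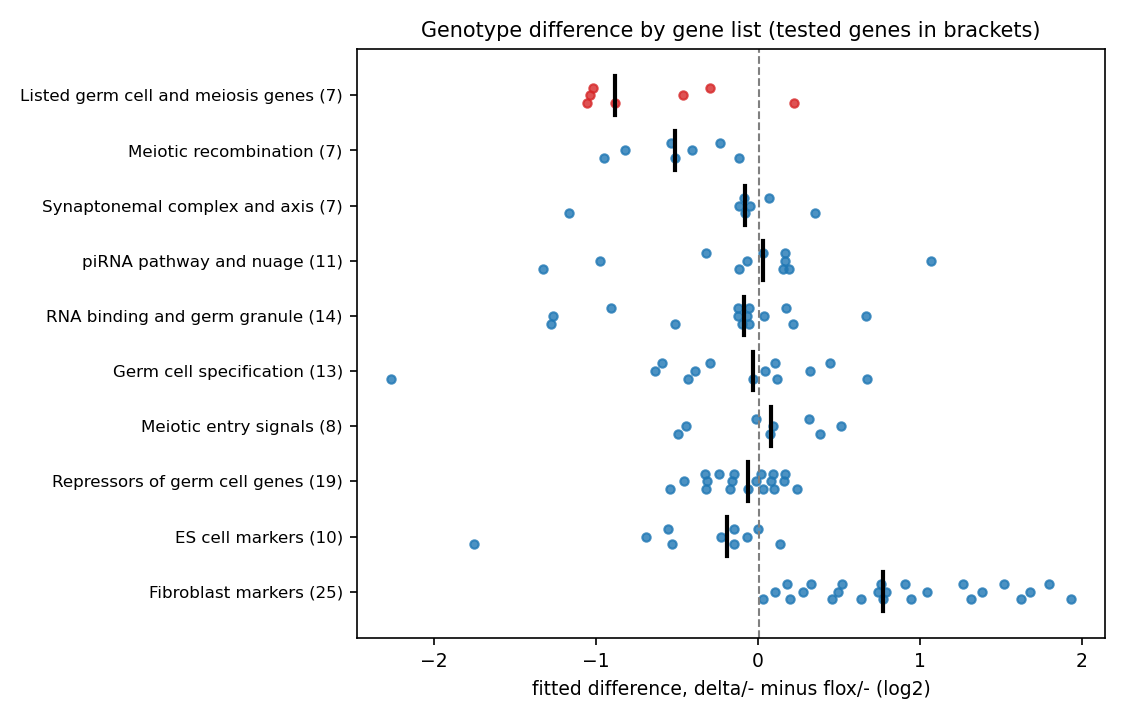
Fitted log2 difference, delta/- minus flox/-, of each tested gene in 10 lists, with a black bar at the list median and a dashed line at the median of all tested genes (0.01); list sizes stand in brackets and the members are in red. The members' median is -0.88, that of meiotic recombination -0.51 and that of fibroblast markers 0.77.

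The genes with the most similar profile over the 4 arrays were found by the root mean square distance of log2 values centred on each gene's mean. For Dazl these were Ptk2b at 0.062, Cldn4 at 0.079 and Mrps24 at 0.081, where the median over all tested genes was 0.593. For Sycp3 they were Mgmt at 0.054, Tcl1 at 0.055 and Mov10l1 at 0.078, where the median was 0.684. With 4 arrays, genes can lie close to a profile by accident. How many lie close was not counted, and this is a description alone.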

How the data were processed

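Each of 4 cultures gave 1 Affymetrix array, hybridised with biotin-labelled cRNA made from total RNA. The deposited values were linear MAS5 signals (array intensity) without detection calls, made by the authors with MAS5, per the submitters' processing notes; the version and scanner settings were not given in the sources used here. The 2% trimmed mean was 100 on each array, and no further scaling was applied. After 64 control probe sets were left out, 34945 probe sets had 1 gene symbol, 932 had several and 9160 were not listed; only the former were used.

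Signals were transformed as log2(signal + 4.6), where 4.6 is their 25th percentile. A gene with several probe sets took the brightest by mean, and genes under the 40th percentile (a signal of 9.46) were left out. Under R 4.3.3, limma 3.58.1 fitted an additive model of genotype and feeders (eBayes with a variance trend, 4.75 prior and 1 residual degrees of freedom), two-sided, with Benjamini-Hochberg adjustment over all tested genes. Single pairs of arrays have no test. The fit was tested on simulated data. Precision is limited by the number of arrays.

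Members and lists were chosen with earlier results of these data known. Named were all members, Sall4, up to 4 genes per list with the largest genotype differences, 3 nearest profiles for Dazl and Sycp3, and genes said to be named after their values were seen. Max, E2f6, Mga, Piwil1, Piwil2, Piwil4, Col1a2, Thy1, Pdgfra, Vim, Fn1, Acta2 and Tagln were also named so.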

Additional observations from a re-analysis of the deposited data

Results flagged for a closer look

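Sycp1 and Ddx4 had genotype differences of opposite sign in the feeder conditions. The difference on feeders minus that on gelatin was -1.10 for Sycp1 (from 0.09 to -1.01) and -1.12 for Ddx4 (from 0.78 to -0.34). Mael and Hormad1 had feeder differences of opposite sign in the genotypes. That of delta/- cells minus that of flox/- cells was -0.76 for Mael (from 0.54 to -0.23) and 1.39 for Hormad1 (from -0.50 to 0.89). Each value comes from 4 single arrays, and these differences were not tested. Opposite signs were seen for 39.9% of all tested genes between genotypes and for 32.4% between feeder conditions.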

How the results depend on the processing

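The count of 0 members called by limma held in both comparisons under all 14 alternatives: offsets of 1 and of the median signal, no filter or 1 at the 60th percentile (which left out Sycp1), quantile normalization, median centring, every probe set, the mean of probe sets, no variance trend, a model with 1 factor, and that model without each array in turn (0 to 0). Over all genes, the 10 alternatives that kept every array gave 0 to 14 calls between genotypes and 183 to 1354 between feeder conditions. The fitted genotype difference of each member was compared only over the 10 alternatives that kept every array (9 for Sycp1). In these it kept its sign for all 7 members. Sycp3 ranged from -1.12 to -0.99, Dazl from -1.11 to -0.86, Hormad1 from -1.08 to -0.88 and Mael from -0.94 to -0.81. The feeder difference of Dazl turned from 0.35 to -0.033 with the mean of probe sets, which disagree. The 1 member at least 2-fold lower in both conditions, Dazl, became 0 with the offset at the median, with the mean of probe sets or at 3-fold, and 2 at 1.5-fold. Between feeder conditions 0 became 1 at 1.5-fold. No paired analysis was possible because each group had 1 array and the labels number no replicates. Without replicate arrays, no spread between cultures was measured, and without detection calls weak signals cannot be told apart from background.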

Other observations

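The filter on the mean signal removed 4 genes of the synaptonemal complex and axis list: Smc1b, Hormad2, Syce3 and Tex12. They were looked at after their values were seen. Smc1b, the meiotic form of a cohesin subunit, read 13.6 in flox/- cells and 0.7 in delta/- cells on gelatin, and 56.0 and 1.1 on feeders. Hormad2, the relative of Hormad1, read 8.7 and 1.2, and 39.4 and 0.7. The central element gene Syce3 read 10 and 0.8, and 26.6 and 6.4, and its partner Tex12 13.0 and 2.6, and 6.9 and 2.0. All 4 were thus lower in delta/- cells in both conditions, which held for 23.7% of the 5708 genes left out by the filter.

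With no filter, limma gave fitted differences of -2.60 for Smc1b (SE 0.49, adjusted p = 0.332), -2.13 for Hormad2 (SE 0.52, adjusted p = 0.417), -1.47 for Syce3 (SE 0.32, adjusted p = 0.397) and -1.05 for Tex12 (SE 0.33, adjusted p = 0.454), and 0 genes of 18193 were called. The signals furthest above the filter signal of 9.46 were Smc1b, Hormad2 and Syce3 in flox/- cells on feeders, at 56.0, 39.4 and 26.6. The part of array background in the weaker signals was not tested. Of the genes left out in the other germ cell lists, 2 of 3 of specification and 2 of 5 of recombination were lower in both conditions, as were 0 of 4 of the piRNA pathway, 0 of 2 of meiotic entry and 0 of 1 of RNA binding.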
